A study of Mus musculus with 9 samples.

Results

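The genes described here encode 8 mouse receptors of the CD300 and paired immunoglobulin-like families: Cd300a, Cd300e, Cd300ld, Cd300lf, Pilra, Pilrb1, Pilrb2 and Pirb. They were found by matching the Ensembl gene IDs of the count table to these symbols, and all 8 were found among the 46517 genes of the table. The family was selected on the measured counts of Pilrb2, which had stood out among all genes, and the other 7 were added as its relatives. Pilrb2 is therefore described without a test, and the other 7 members were tested together with all other genes. Pilrb1 shares much of its sequence with Pilrb2, so its values are not independent of that choice.

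The 9 RNA-seq libraries hold RNA of primary, in vitro monocytes, all wt C57BL/6, with no treatment, time or animal age in the labels. There were 3 conventional (cMo), 3 intermediate (intMo) and 3 patrolling (pMo) monocyte libraries, numbered 0, 1 and 2 in each subset. The series title speaks of bone marrow cells in OP9-DLL1 cultures (stromal feeder cells presenting the Notch ligand Delta-like 1), while the labels do not say which subsets were grown that way or how they were separated. Nothing in the labels says whether the 3 libraries of a subset came from separate cultures or animals, so p-values measure the spread between these libraries, which may be technical.

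CD300, PILR and PIR proteins are single-pass surface receptors with immunoglobulin-like domains that myeloid cells carry as inhibitory and activating counterparts. Inhibitory members have a long cytoplasmic tail with tyrosine motifs (ITIMs) that recruit the phosphatases SHP-1 and SHP-2. Activating members have a short tail and signal through adaptors such as DAP12 or the Fc receptor gamma chain, which carry the motifs that the kinase Syk binds. CD300 receptors bind lipids of cell membranes, PILR receptors bind sialylated proteins, and PIR-B binds MHC class I molecules. Cd300a, Cd300lf, Pilra and Pirb were taken as inhibitory here, and Cd300e, Cd300ld, Pilrb1 and Pilrb2 as activating.

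Library totals ran from 18455008 to 29985563 estimated counts, and 14059 genes had enough counts to be tested. Levels are given as CPM, counts relative to the library size after scaling by the trimmed mean of M values (TMM). The conventional markers Ly6c2, Ccr2, Chil3 and Fn1 summed to 3598 to 6528 CPM in cMo, 896 to 1628 in intMo and 508 to 808 in pMo. The 8 patrolling markers summed to 1213 to 1530, 3798 to 4659 and 9990 to 12619 CPM. Both sums follow the labels, but not every marker does. The largest parts of the patrolling sum in intMo were Nr4a1 (mean 1923 CPM) and Itgax (963). Of the 8 patrolling markers, 5 were called higher, 1 lower and 2 not called in intMo against cMo. The lower one was Spn, at 57.2 to 129 CPM in intMo and 227 to 332 in cMo. In pMo against cMo all 8 were called higher. Markers of other cells moved between subsets as well. All 6 tested of 8 stromal markers were called higher in intMo and in pMo than in cMo, with sums of 7.7 to 15.3 CPM in cMo, 154 to 515 in intMo and 170 to 350 in pMo, and Dcn, a defining stromal gene, was at 0 in every library. The 5 dendritic cell markers summed to 41.6 to 42.0, 72.3 to 87.4 and 11.1 to 24.4 CPM. The 9 granulocyte markers summed to 1792 to 10839 CPM in cMo, with the highest value in library 0, to 427 to 3890 in intMo and to 529 to 2505 in pMo. B cell markers stayed between 16.8 and 44.8 CPM, T and NK cell markers between 0.72 and 5.14 and mast cell and basophil markers between 0.35 and 14.3. The part of other cells in the results that follow was not tested. In bulk RNA, fewer cells of a type and less RNA per cell cannot be told apart.

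Libraries numbered 0 stood apart within their subsets: log2 CPM correlated at 0.986 to 0.990 between libraries 1 and 2 and at 0.951 to 0.975 with library 0. Among the members, cMo library 0 lay below the mean of the other cMo libraries by 2.45 on the log2 scale for Cd300e, by 1.13 for Cd300a and by 0.87 for Cd300ld, and above it by 0.53 for Cd300lf.

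The PILR genes lie side by side on the minus strand of chromosome 5 within 49.9 kb (GRCm38, GENCODE M21 annotation, all protein coding): Pilra (ENSMUSG00000046245.12, 137821952 to 137836281), Pilrb1 (ENSMUSG00000066684.9, 137852147 to 137858106) and Pilrb2 (ENSMUSG00000066682.10, 137865827 to 137871815). Pilra encodes the inhibitory receptor, with 302 codons, and Pilrb1 and Pilrb2 encode activating receptors of 225 codons each. The 3 coding sequences open almost alike. Their first 150 bases are shown because the near identity bears on how reads are divided among them, with capitals at the 11 positions where they are not all the same.
Pilra: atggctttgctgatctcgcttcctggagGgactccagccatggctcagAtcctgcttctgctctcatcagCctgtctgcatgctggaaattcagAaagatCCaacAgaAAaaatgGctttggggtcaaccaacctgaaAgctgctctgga
Pilrb1: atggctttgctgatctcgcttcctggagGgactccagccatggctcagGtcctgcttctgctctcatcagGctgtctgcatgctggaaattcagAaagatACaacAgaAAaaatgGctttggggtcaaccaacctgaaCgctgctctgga
Pilrb2: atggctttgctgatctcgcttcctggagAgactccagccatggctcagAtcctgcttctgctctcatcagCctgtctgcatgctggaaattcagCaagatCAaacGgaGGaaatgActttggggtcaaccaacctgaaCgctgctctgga
Pilrb1 and Pilrb2 differ at 10 of these positions. Over the whole coding sequence they are 93.5% identical (631 of 675 bases). Pilra matches Pilrb1 at 588 of 908 aligned columns (64.8%) and Pilrb2 at 589 of 906 (65.0%). These columns count gaps, as the coding sequence of Pilra has 906 bases and those of Pilrb1 and Pilrb2 have 675 each. Of the 31-base words of the annotated transcripts, the default word length of kallisto, 51.8% of those of Pilrb2 and 49.9% of those of Pilrb1 occur in no other gene. Pilrb1 shares 42.8% of its words with Pilrb2. For Pilra, 71.5% are unique and 14.0% are shared with Zcwpw1, which overlaps it on the opposite strand by 468 exonic bases and measured 6.41 to 11.7 CPM. The division of counts between Pilrb1 and Pilrb2 is therefore uncertain, and which annotation the authors counted on is not stated in the labels.

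All 3 PILR genes were several-fold higher in intMo and pMo than in cMo, and their levels in intMo and pMo lay close together. Pilrb2 measured 25, 26.4 and 30 CPM in cMo libraries 0, 1 and 2, in that order, 143, 158 and 136 CPM in intMo and 159, 154 and 160 CPM in pMo. Every intMo and pMo library was above every cMo library, and the pMo values fell within or just above the intMo range. The means were 27.1 ± 2.59 CPM (SD, n = 3 libraries, as for all means below) in cMo, 146 ± 11.3 in intMo and 158 ± 3.02 in pMo. The log2 fold change of Pilrb2 was 2.42 ± 0.12 (SE) in intMo against cMo, 2.54 ± 0.12 in pMo against cMo and 0.12 ± 0.12 in pMo against intMo. These values, from the gene that drew attention to the family, are a description.

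Pilrb1 measured 27.4, 34.0 and 44.7 CPM in cMo, 148, 172 and 156 CPM in intMo and 142, 152 and 156 CPM in pMo. The cMo libraries again lay below all others, and intMo and pMo overlapped. It rose in intMo against cMo with a log2 fold change of 2.17 ± 0.18 (edgeR adjusted p = 0.000112) and in pMo against cMo with 2.08 ± 0.18 (edgeR adjusted p = 7.87e-05). Between intMo and pMo the value was -0.08 ± 0.17 (edgeR adjusted p = 0.866, 95% interval -0.42 to 0.25). With the counts of Pilrb1 and Pilrb2 summed before the fit, the last value turned to 0.02.

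Pilra measured 69.2, 84.5 and 93.0 CPM in cMo, 340, 324 and 307 CPM in intMo and 353, 338 and 332 CPM in pMo. The lowest intMo library was more than 3 times the highest cMo library, and intMo and pMo overlapped. The log2 fold change was 1.98 ± 0.14 in intMo against cMo (edgeR adjusted p = 4.27e-05), 2.05 ± 0.14 in pMo against cMo (edgeR adjusted p = 1.93e-05) and 0.08 ± 0.13 in pMo against intMo (edgeR adjusted p = 0.832, 95% interval -0.18 to 0.33). As a share of counts, not corrected for length, Pilra took 56.9% ± 1.42 of the PILR counts in cMo, 51.5% ± 2.18 in intMo and 52.6% ± 1.39 in pMo, while their summed level went from 145 ± 23.0 to 628 ± 28.2 and 649 ± 4.91 CPM. Pilrb2 took 43.9% ± 3.76 of the Pilrb1 and Pilrb2 counts in cMo, 47.8% ± 1.30 in intMo and 51.3% ± 1.34 in pMo, with the limit on dividing these reads given above.

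**Figure D1:**
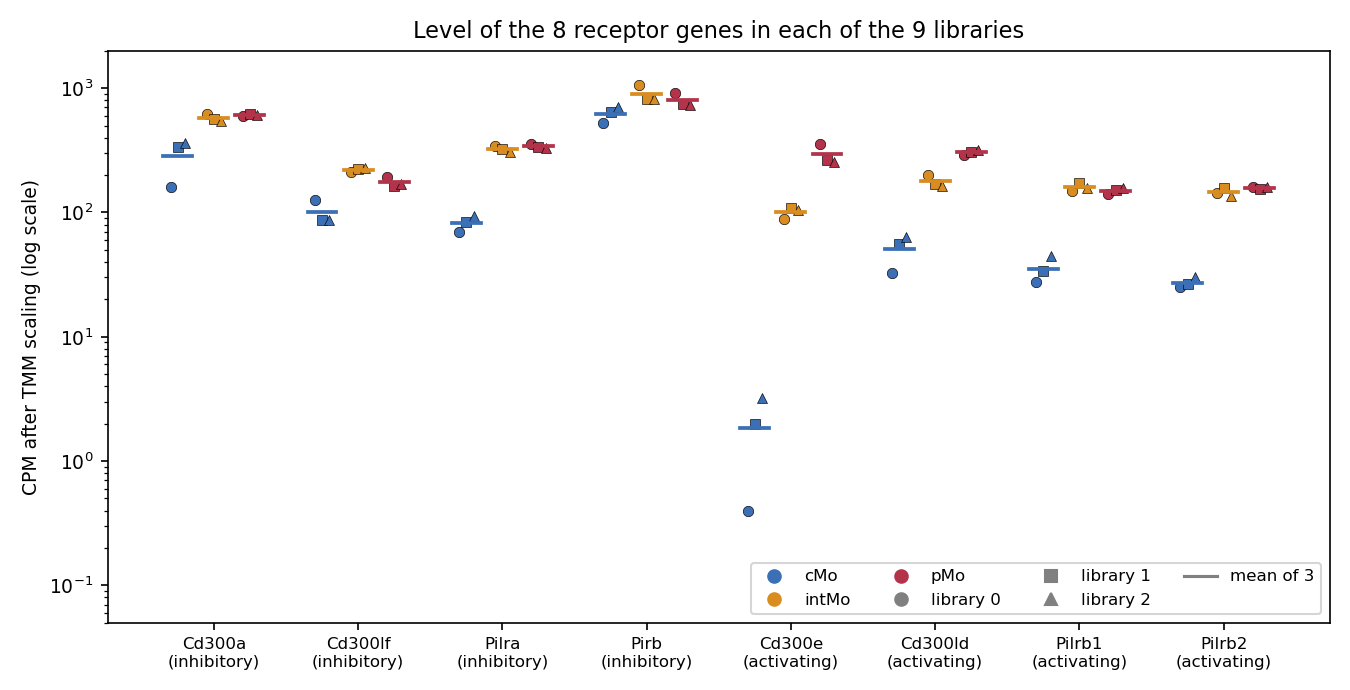
Level of each receptor gene (x axis, with its receptor type) in every library, as CPM after TMM scaling on a log axis. Colours give the subset, symbols the library number and bars the mean of 3 libraries; in all 8 genes every intMo and pMo library lies above every cMo library, and Cd300e in cMo lies lowest, between 0.396 and 3.2 CPM.

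The CD300 members lie on chromosome 11 within 244.0 kb: Cd300a (ENSMUSG00000034652.11, 114890041 to 114904654, plus strand), and on the minus strand Cd300ld (ENSMUSG00000034641.2, 114982274 to 114989922), Cd300e (ENSMUSG00000048498.7, 115051917 to 115062177) and Cd300lf (ENSMUSG00000047798.14, 115116214 to 115133992). Between 91.8% and 100% of their 31-base words are unique to the gene, so reads of these members are divided with less doubt than those of Pilrb1 and Pilrb2. Cd300lf overlaps Rab37 on the opposite strand without shared exonic bases, and Rab37 measured 2.21 to 11.2 CPM.

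Cd300e, an activating receptor, had the widest range of the members. It measured 0.396, 1.97 and 3.2 CPM in cMo (156 counts in all, 95% Poisson interval 132 to 182, counting error only), 88.9, 109 and 104 CPM in intMo and 356, 266 and 257 CPM in pMo. The 3 subsets did not overlap. Cd300e rose 54.1-fold in intMo against cMo (log2 5.76 ± 0.56, edgeR adjusted p = 0.00027) and 157-fold in pMo against cMo (log2 7.30 ± 0.59, edgeR adjusted p = 6.96e-05). Both values moved with the libraries used: they were 6.40 and 7.94 without cMo library 2, 5.28 and 6.82 without cMo library 0, and 5.37 and 6.67 with libraries 1 and 2 alone. For pMo against intMo the log2 fold change was 1.54 ± 0.45 (95% interval 0.66 to 2.42), which missed the threshold in the fit to all 9 libraries (edgeR adjusted p = 0.0936). With the library number as a block in a fit to the 6 intMo and pMo libraries alone, the value was 1.51 ± 0.15 (edgeR adjusted p = 0.000337). That pairing was taken from the data, and it sets library 0 apart but does not tell 1 from 2. Without cMo library 0 the value was 1.54 (edgeR adjusted p = 0.00333). The block over all 9 libraries gave 1.58 with no call (edgeR adjusted p = 0.116). Of 17 alternatives, 4 gained the call, and adjusted p-values ran up to 0.232.

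Cd300ld, also an activating receptor, measured 32.5, 55.7 and 63.2 CPM in cMo, 201, 170 and 163 CPM in intMo and 291, 305 and 319 CPM in pMo. As with Cd300e, the subsets did not overlap and stood in the order cMo, intMo, pMo. It rose in intMo against cMo (log2 1.82 ± 0.23, edgeR adjusted p = 0.000819) and in pMo against cMo (log2 2.60 ± 0.23, edgeR adjusted p = 0.000101). The pMo against intMo value of 0.78 ± 0.22 was not called over all 9 libraries (edgeR adjusted p = 0.0849). It was 0.76 ± 0.12 with the block in the 6 libraries alone (edgeR adjusted p = 0.00196) and 0.77 without cMo library 0 (edgeR adjusted p = 0.00691). The block over all 9 libraries gave 0.76 with no call (edgeR adjusted p = 0.105). Of 17 alternatives, 4 gained the call, and adjusted p-values ran up to 0.241.

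Cd300a, an inhibitory receptor, measured 160, 335 and 365 CPM in cMo, 623, 566 and 547 CPM in intMo and 594, 622 and 603 CPM in pMo. Library 0 was the low one in cMo, and intMo and pMo overlapped. Cd300a rose in intMo against cMo (log2 1.01 ± 0.26, edgeR adjusted p = 0.0218) and in pMo against cMo (log2 1.08 ± 0.26, edgeR adjusted p = 0.0121). Without intMo library 0 the first call was lost (edgeR adjusted p = 0.0559), and with libraries 1 and 2 alone its value was 0.67 (edgeR adjusted p = 0.00246). The pMo against intMo value was 0.07 ± 0.26 (edgeR adjusted p = 0.936, 95% interval -0.44 to 0.57).

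Cd300lf, an inhibitory receptor known as the entry receptor of murine norovirus, measured 126, 87.3 and 87.0 CPM in cMo, 211, 222 and 230 CPM in intMo and 193, 163 and 168 CPM in pMo. Its pMo values lay between those of the other subsets without overlap, so it is the one CD300 member with its highest level in intMo. In cMo its high library, number 0, is the one with the granulocyte marker sum of 10839 CPM. A link between that sum and the level of Cd300lf was not tested. Cd300lf rose in intMo against cMo (log2 1.14 ± 0.16, edgeR adjusted p = 0.00157) and in pMo against cMo (log2 0.80 ± 0.16, edgeR adjusted p = 0.00563). The pMo against intMo value was -0.34 ± 0.16 (edgeR adjusted p = 0.307), and -0.45 with libraries 1 and 2 alone (edgeR adjusted p = 0.0194). That was the only 1 of 17 alternatives to call it.

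Pirb (ENSMUSG00000058818.12, chromosome 7, 3711409 to 3720391, minus strand) encodes the inhibitory receptor PIR-B, with 841 codons the longest of the members. It measured 527, 639 and 706 CPM in cMo, 1068, 820 and 812 CPM in intMo and 918, 742 and 726 CPM in pMo. The intMo and pMo libraries all exceeded the cMo libraries, by little in libraries 1 and 2, and overlapped with each other. The log2 fold change in intMo against cMo was 0.53 ± 0.17 (edgeR adjusted p = 0.0487). That call was lost in 12 of 16 alternatives, among them leaving out any 1 library other than pMo library 0, with adjusted p-values of 0.0359 to 0.146 over the 16. With libraries 1 and 2 alone the value was 0.29. In pMo against cMo it was 0.35 ± 0.17 (edgeR adjusted p = 0.143) and in pMo against intMo -0.18 ± 0.17 (edgeR adjusted p = 0.667). Only 55.9% of the 31-base words of Pirb are unique to it, 23.7% being shared with Gm14548 and 23.1% with Lilra6, so its counts carry the same doubt as those of Pilrb1 and Pilrb2. In intMo libraries 0, 1 and 2, Gm14548 measured 70.4, 180 and 191 CPM and Lilra6 12.2, 53.2 and 50.5 CPM. Library 0, the highest there for Pirb, was thus the lowest for both, as it was in pMo. In cMo, library 0 was the lowest for Pirb and for both. Whether reads passed between these genes was not tested.

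Seen together, the 7 tested members were all called higher in intMo than in cMo, where 14.0% of all 14059 tested genes were called higher and 10.4% lower. In pMo against cMo, 6 of the 7 were called higher and Pirb was not called, against 17.2% of all genes higher and 15.9% lower. These comparisons share the cMo libraries. The members were chosen with earlier results of these data known, so the counts are a description of the chosen genes. Pilrb1 shares much of its sequence with Pilrb2, and the Pirb call in intMo against cMo was lost in 12 of 16 alternatives. In pMo against intMo, edgeR called 0 of the 7, against 3.29% of all genes higher and 1.69% lower. Cd300e and Cd300ld were higher at an unadjusted p under 0.05, and the same 2 were called higher by DESeq2, with the block in the 6 libraries alone and without cMo library 0. Libraries 1 and 2 alone called them as well, so each gained its call in 4 of 17 alternatives. By unadjusted order of the libraries, the 7 tested members lay wholly above cMo in intMo, as did 21.2% of all genes, with 20.1% wholly below. The same 7 lay wholly above cMo in pMo, as did 26.0% of all genes, with 23.5% wholly below. Pilrb2, on which the family was chosen, is left out of these counts. In pMo against intMo, Cd300e and Cd300ld lay wholly above (14.8% of all genes) and Cd300lf wholly below (12.9% of all genes), and the other tested members overlapped.

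Log2 fold changes of the 7 tested members ran from 0.53 to 5.76 in intMo against cMo, where the median of all tested genes was -0.01. They ran from 0.35 to 7.30 in pMo against cMo, with a median of 0.03 over all genes. In pMo against intMo they ran from -0.34 to 1.54, with a median of -0.02 over all genes. Medians of all 8 members, 1.90, 2.07 and 0.07 in the same order, include Pilrb2 and are a description. By receptor type, the 4 inhibitory genes had log2 fold changes of 0.53 to 1.98 in intMo against cMo and the 4 activating genes 1.82 to 5.76. In pMo against cMo the ranges were 0.35 to 2.05 and 2.08 to 7.30, and in pMo against intMo -0.34 to 0.08 and -0.08 to 1.54. The activating genes are also the shorter ones, with 196 to 225 codons against 302 to 841. This grouping by type was made with the values known and was not tested. Its activating genes include Pilrb1 and Pilrb2, which share much of their sequence. Activating genes outside the members went different ways. In the same order of comparisons, Pira2 had log2 fold changes of 0.65, -0.65 and -1.30, and Lilra5 had 4.61, 7.08 and 2.47.

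**Figure D2:**
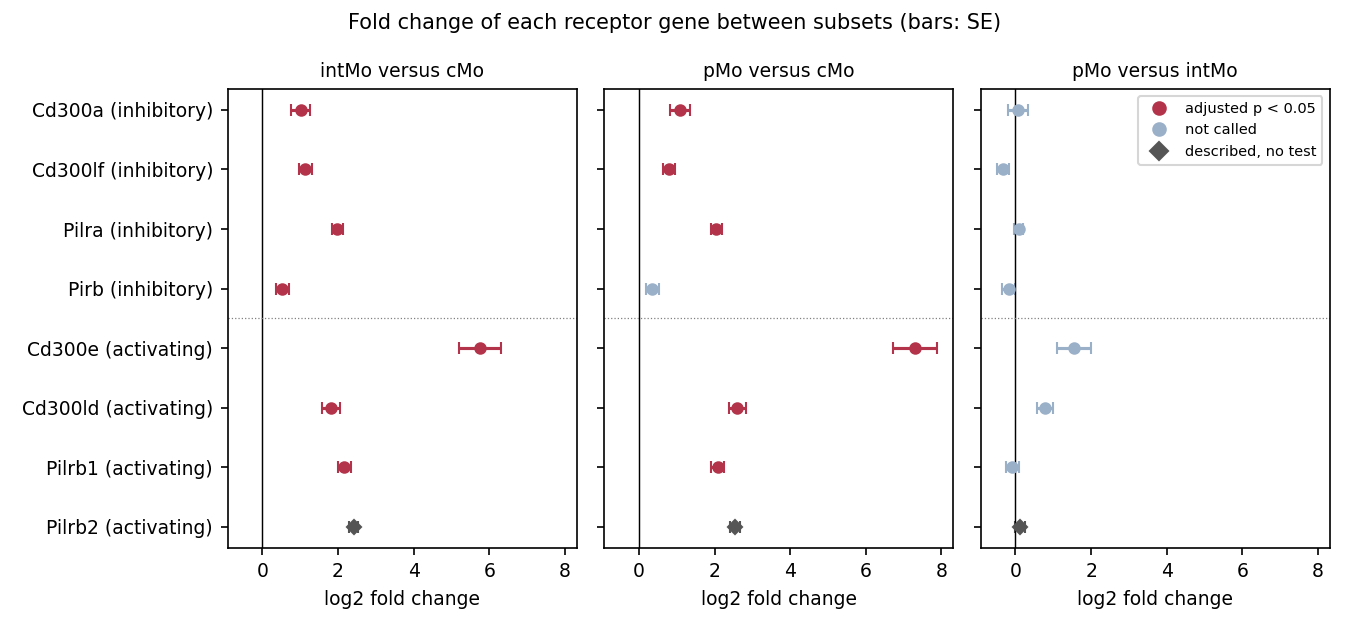
Log2 fold change (x axis, same scale in each panel) of each receptor gene in the 3 comparisons, with bars of 1 SE from the edgeR fit to 9 libraries. Red marks an adjusted p under 0.05, blue no call and the grey diamond Pilrb2, which was not tested; Cd300e stands farthest right in every panel, at 5.76, 7.30 and 1.54.

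Levels of different genes were compared per kb of annotated exon. Pirb was highest in all 3 subsets, at 140 ± 20.3 CPM per kb in cMo, 201 ± 32.5 in intMo and 178 ± 23.9 in pMo. Cd300a followed in cMo (60.5 ± 23.4) and intMo (122 ± 8.33). Cd300e moved from the last place in cMo (0.889 ± 0.674 CPM per kb) to rank 7 in intMo (48.2 ± 5.05) and rank 2 in pMo (140 ± 26.3), where its libraries overlapped with those of Pirb and of Cd300a (128 ± 3.13). Cd300lf was at rank 4 in cMo (19.5 ± 4.39) and at rank 8 in pMo (33.9 ± 3.14). In cMo the neighbours from Pilra down to Pilrb2 overlapped, in this order Pilra (26.6 ± 3.91 CPM per kb), Cd300lf, Cd300ld (19.1 ± 6.05), Pilrb1 (18.1 ± 4.45) and Pilrb2 (13.9 ± 1.32). In intMo the order after Cd300a was Pilra (105 ± 5.38), Pilrb1 (81.1 ± 6.32), Pilrb2 (74.4 ± 5.77), Cd300ld (67.3 ± 7.57), Cd300e and Cd300lf (43.0 ± 1.8), and the libraries overlapped between Pilrb1 and Pilrb2, between Pilrb2 and Cd300ld and between Cd300e and Cd300lf. In pMo the order after Cd300a was Cd300ld (115 ± 5.25), Pilra (110 ± 3.47), Pilrb2 (80.6 ± 1.54), Pilrb1 (76.6 ± 3.76) and Cd300lf, with overlap between Cd300ld and Pilra and between Pilrb2 and Pilrb1. Taking the longest transcript as the length instead kept Pirb first in every subset and Cd300e second in pMo, but put Cd300e last in intMo and Pilra level with Cd300a there, at 125 CPM per kb each, and moved Pilra to rank 3 and Cd300a to rank 4 in pMo.

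Along chromosome 11, the 4 CD300 members stand in a cluster of 11 CD300 genes. The summed level of the cluster was 663 ± 176 CPM in cMo, 1620 ± 183 in intMo and 2062 ± 154 in pMo. Cd300e took 0.253% ± 0.160 of the cluster's counts in cMo, 6.31% ± 1.27 in intMo and 14.1% ± 1.54 in pMo, and Cd300ld took 7.52% ± 0.483, 11% ± 0.145 and 14.9% ± 1.68. The share of Cd300a went from 42.1% ± 6.55 to 35.8% ± 1.62 and 29.5% ± 2.64, although its level was higher in intMo and pMo. Cd300lf took 16.7% ± 9.15 in cMo, where library 0 had 27.3%, then 13.8% ± 1.99 and 8.47% ± 0.208.

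The other CD300 genes, 8 with Cd300lg, which lies elsewhere on chromosome 11, were all tested. In intMo against cMo, 6 were called higher and 1 lower (median log2 fold change 2.29), against 14.0% and 10.4% of all genes. In pMo against cMo 3 were higher and 1 lower (median 1.04), against 17.2% and 15.9% of all genes. In pMo against intMo 1 was higher and 1 lower (median -0.41), against 3.29% and 1.69% of all genes. Cd300c2 rose from 32.4, 80.3 and 103 CPM in cMo to 283, 240 and 201 CPM in the intMo libraries (log2 1.75 ± 0.35, edgeR adjusted p = 0.00801), with 311, 297 and 290 CPM in pMo. Cd300lg went the other way, from 13.2, 45.2 and 46.3 CPM in cMo to 1.5, 2.55 and 2.25 CPM in the intMo libraries (log2 -4.04 ± 0.50, edgeR adjusted p = 0.000808) and 3.2, 1.89 and 2.1 CPM in pMo. Cd300c and Cd300lb are named after their values were seen, as neighbours whose highest subset differs. Cd300c was highest in intMo and fell in pMo against intMo (log2 -1.81 ± 0.27, edgeR adjusted p = 0.00709), while Cd300lb rose in the same comparison (log2 0.80 ± 0.14, edgeR adjusted p = 0.0129), a call lost without intMo library 1, intMo library 2 or pMo library 1, with adjusted p-values up to 0.0636.

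The 4 genes Cd300ld2 to Cd300ld5, between Cd300c2 and Cd300e, were highest in library 0 within intMo and within pMo, and lowest in library 0 within cMo. Cd300ld3 measured 225, 73.0 and 111 CPM in intMo and 246, 127 and 126 CPM in pMo, against 4.86, 29.6 and 18.3 CPM in cMo. Its rise in intMo against cMo was called (log2 2.95 ± 0.65, edgeR adjusted p = 0.0121) and kept its call in all 16 alternatives, with a value of 1.94 with libraries 1 and 2 alone. That of Cd300ld4 (log2 2.89 ± 0.88, edgeR adjusted p = 0.0425) lost its call in 8 of 16 alternatives, with adjusted p-values up to 0.137, among them leaving out any cMo library, intMo library 0 or 2, or pMo library 2. With the block in the 6 libraries alone, 3 of the other CD300 genes were called lower in pMo against intMo in place of 1, Cd300c, Cd300ld2 (named after its values were seen) and Cd300ld4 (log2 -1.64 ± 0.20, edgeR adjusted p = 0.000571). That fit called 2589 genes in all, where the fit to 9 libraries called 701. Of the 31-base words of Cd300ld5 none is unique, and of those of Cd300ld4 and Cd300ld3 3.77% and 15.9% are, so counts can pass between these copies. Their summed level was 298 CPM in intMo library 0 and 277 CPM in pMo library 0, against 94.4 to 139 CPM in the other libraries of both subsets.

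**Figure D3:**
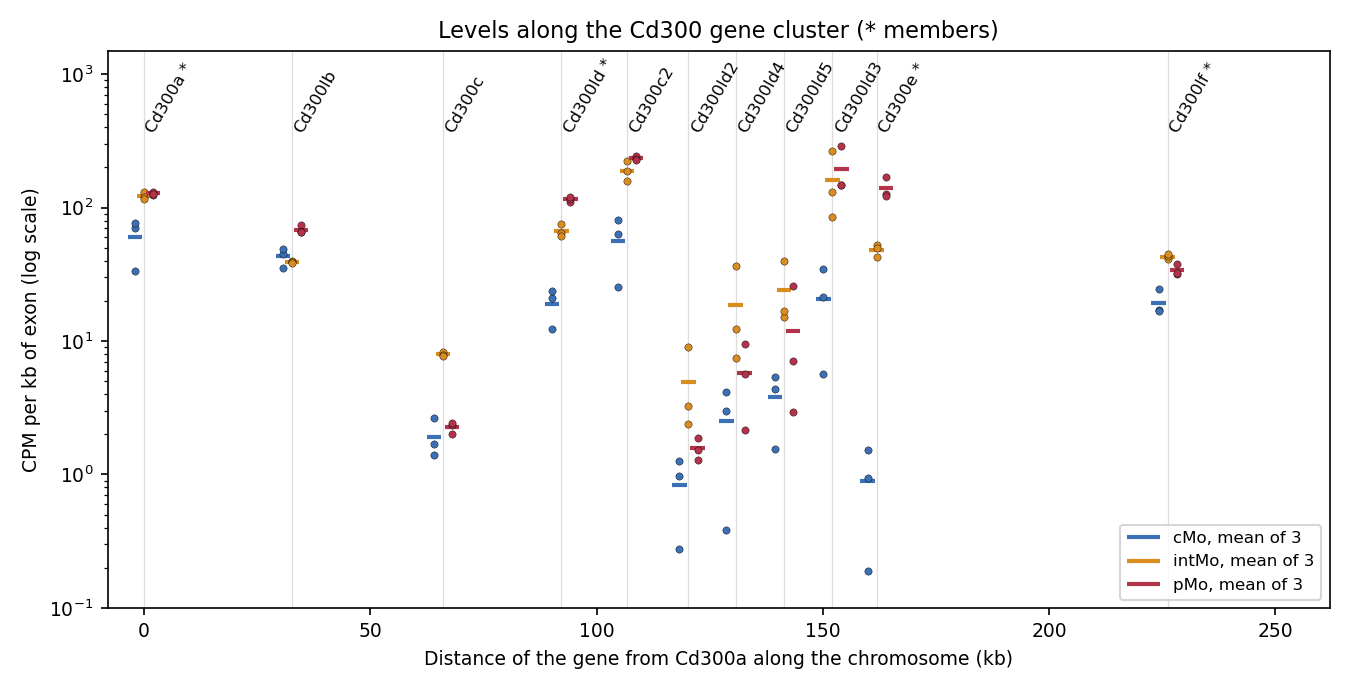
Level of the 11 clustered CD300 genes (CPM per kb of exon, log axis) against the distance of each gene from Cd300a in kb, with a point for each library, a bar for the mean of 3 and colours for the subsets. Points of the subsets are set side by side for legibility; asterisks mark the 4 members, of which Cd300e shows the widest spacing between subsets.

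In the leukocyte receptor complex on chromosome 7, which holds Pirb, 3 of the 13 other listed genes were analysed here. Lilra5, an activating receptor of that complex, measured 0.324, 0.141 and 0.468 CPM in cMo, 6.75, 8.91 and 7.33 CPM in intMo and 39.4, 47.2 and 41.3 CPM in pMo. It rose in intMo against cMo (log2 4.61 ± 0.32, edgeR adjusted p = 4.27e-05), in pMo against cMo (log2 7.08 ± 0.34, edgeR adjusted p = 3.29e-06) and in pMo against intMo (log2 2.47 ± 0.25, edgeR adjusted p = 0.00117). Pira2, an activating counterpart of Pirb, measured 427, 287 and 289 CPM in intMo and 167, 119 and 122 CPM in pMo and fell between them (log2 -1.30 ± 0.26, edgeR adjusted p = 0.023). That call was lost without intMo library 2, without pMo library 1 or without pMo library 2, with adjusted p-values up to 0.12. The ratio of Pirb to Pira2 counts was 3.04 ± 0.59 in cMo, 2.72 ± 0.195 in intMo and 5.88 ± 0.36 in pMo. Only 3.29% of the 31-base words of Pira2 are unique and 88.1% are shared with Gm15922, a gene at 15.8 to 51.4 CPM, so the ratio depends on how reads were divided.

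The profiles of the members over the 9 libraries were compared after centring each gene's log2 CPM on its mean, as a root mean square (RMS) difference; all genes share the libraries and their depth. Pilra and Pilrb1 were closest, at 0.145 log2 units, followed by Pilrb1 and Pilrb2 at 0.211 and Pilra and Pilrb2 at 0.229. Pilrb1 shares 42.8% of its 31-base words with Pilrb2 and 13.0% with Pilra. The part of reads divided among these genes in their closeness was not tested. Profiles were not rescaled, so the measure also reflects how much each gene varied. Cd300e varied by 3.37 about its mean and Pirb by 0.278. Cd300e stood 2.24 or more from each of the others. Among all tested genes outside the members, those nearest to Pilrb2, which itself varied by 1.17 about its mean, were Abhd6 (0.178), Rab20 (0.204) and Shisa4 (0.208), all of lower level, with Shisa4 at 0.0352 to 0.679 CPM. The nearest to the others were Lst1 to Cd300a (0.0735), Bcl2a1b to Cd300e (0.670), Acss1 to Cd300ld (0.126), Perm1 to Cd300lf (0.0895), Marcks to both Pilra (0.130) and Pilrb1 (0.152), and Dtx3 to Pirb (0.0662).

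**Figure D4:**
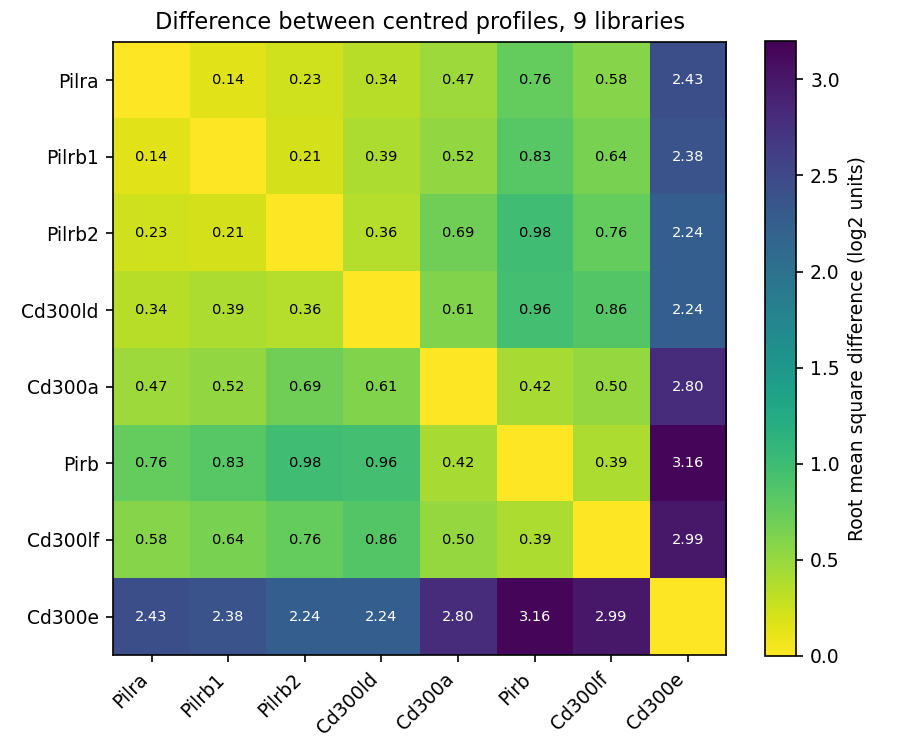
RMS difference in log2 units between the centred profiles of each pair of receptor genes over 9 libraries, darker for larger differences. The 3 PILR genes, which share part of their sequence, form the block of smallest values at upper left (0.145 to 0.229). The row and column of Cd300e, the gene that varied most, hold values of 2.24 and above.

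Genes for the adaptors, phosphatases, kinases and ligands of these receptors were taken from lists. Of all tested genes, 14.0% were called higher and 10.4% lower in intMo against cMo. The shares were 17.2% and 15.9% in pMo against cMo, and 3.29% and 1.69% in pMo against intMo. Median log2 fold changes over the adaptors were 0.24 in intMo and 0.45 in pMo, each against cMo, and over the phosphatases 0.11 and 0.62. Tyrobp, which encodes DAP12, measured 603 to 853 CPM in cMo, 853 to 863 in intMo and 927 to 1064 in pMo. It rose in pMo against cMo (log2 0.45 ± 0.14, edgeR adjusted p = 0.0364), a call lost in 9 of 16 alternatives with adjusted p-values up to 0.121, among them leaving out any 1 library other than cMo library 2 or intMo library 0. Fcer1g, the Fc receptor gamma chain, rose in pMo against cMo (log2 0.78 ± 0.17, edgeR adjusted p = 0.00686) and in intMo against cMo (log2 0.52 ± 0.17, edgeR adjusted p = 0.0476), the second of which was lost in 11 of 16 alternatives with adjusted p-values up to 0.121, among them leaving out any 1 library other than cMo library 2. Hcst, which encodes DAP10, measured 4.92 to 10.6 CPM and was called in no comparison. Thus 1 of 3 adaptors was called higher in intMo against cMo, 2 in pMo against cMo and 0 in pMo against intMo, where 0 also had an unadjusted p under 0.05 in edgeR and DESeq2 called 0.

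Of the 3 phosphatases, 1 was called higher in intMo against cMo (14.0% of all genes), 3 in pMo against cMo (17.2%) and 1 in pMo against intMo (3.29%). Ptpn11, which encodes SHP-2, measured 96.9 to 136 CPM in cMo, 85.8 to 109 in intMo and 175 to 186 in pMo. It rose in pMo against intMo (log2 0.88 ± 0.15, edgeR adjusted p = 0.0115), a call lost without intMo library 1, pMo library 1 or pMo library 2, with adjusted p-values up to 0.0616. Ptpn6, which encodes SHP-1, rose in pMo against cMo (log2 0.61 ± 0.18, edgeR adjusted p = 0.0284), lost without cMo library 0, cMo library 1, pMo library 1 or pMo library 2, with values up to 0.0948. With the block in the 6 libraries alone, Ptpn6 was also called higher in pMo against intMo (log2 0.50 ± 0.10, edgeR adjusted p = 0.00911), which made 2 of the 3 phosphatases. That fit called 2589 genes in all, where the fit to 9 libraries called 701. Inpp5d, which encodes the lipid phosphatase SHIP-1, rose in intMo (log2 0.59 ± 0.15, edgeR adjusted p = 0.022, lost without cMo library 0 or 2 or intMo library 0 or 2, with values up to 0.0721) and in pMo (log2 0.68 ± 0.15, edgeR adjusted p = 0.00868), each against cMo.

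Of 7 kinases and effectors, 3 were called higher and 1 lower in intMo against cMo (median log2 fold change -0.06), against 14.0% and 10.4% of all genes. In pMo against cMo 3 were called higher (median 0.22, 17.2% of all genes) and in pMo against intMo 1 (median 0.25, 3.29% of all genes). The Src-family kinase Fgr measured 201 to 257 CPM in cMo, 431 to 454 in intMo and 767 to 921 in pMo. It rose in intMo against cMo (log2 0.91 ± 0.14, edgeR adjusted p = 0.00184) and in pMo against intMo (log2 0.90 ± 0.14, edgeR adjusted p = 0.00709). Lyn, of the same family, rose in intMo against cMo (log2 0.86 ± 0.15, edgeR adjusted p = 0.00367) and in pMo against cMo (log2 0.77 ± 0.15, edgeR adjusted p = 0.004). Its pMo against intMo value was -0.08 ± 0.15 (edgeR adjusted p = 0.841). Syk, the kinase that binds the adaptors, rose in pMo against cMo (log2 1.13 ± 0.19, edgeR adjusted p = 0.00241). Its call in intMo against cMo (log2 0.61 ± 0.19, edgeR adjusted p = 0.0453) was lost in 9 of 16 alternatives with values up to 0.143, among them leaving out cMo library 0 or 2, intMo library 0 or 2, or pMo library 1 or 2. With the block in the 6 libraries alone, 2 kinases were called higher in pMo against intMo, Fgr and Syk (log2 0.51 ± 0.11, edgeR adjusted p = 0.0108). That fit called 2589 genes in all, where the fit to 9 libraries called 701.

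Of the 6 tested genes for protein ligands, 5 were called higher in intMo (14.0% of all genes) and 5 in pMo (17.2%), each against cMo. In pMo against intMo 0 were called higher (3.29% of all genes), and DESeq2 called 0. There 1 gene, H2-D1 (named after its values were seen), had an unadjusted p under 0.05 in edgeR and was called with the block in the 6 libraries alone. B2m, the light chain of the MHC class I molecules that PIR-B binds, measured 825 to 1423 CPM in cMo, 1714 to 2333 in intMo and 1912 to 2768 in pMo. It rose in intMo against cMo (log2 0.87 ± 0.23, edgeR adjusted p = 0.0225, lost without cMo library 0 or 1 or intMo library 1 or 2, with values up to 0.0645) and in pMo against cMo (log2 1.15 ± 0.23, edgeR adjusted p = 0.0048). Pianp and Npdc1, whose products bind PILR receptors, were called higher in both comparisons but at low levels. The highest values were 4.02 CPM for Pianp and 1.88 CPM for Npdc1, both in intMo library 0. That library had the stromal marker sum of 515 CPM, and a link to this sum was not tested. The pMo call of Pianp was lost without any 1 of the cMo libraries or without pMo library 0, with adjusted p-values up to 0.0683.

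The promoters of Pilrb1 and Pilrb2 are nearly identical, and that of Pilra shares a stretch with them. They are shown with that of Cd300e, the member that varied most. The windows run from 170 bases before to 30 bases after the RefSeq start (GRCm38.p6), on the minus strand, written 5′ to 3′ with the letters AGGAAGT, a word that ETS-family factors such as PU.1 can bind, in capitals.
Pilra, chr5:137836249-137836448: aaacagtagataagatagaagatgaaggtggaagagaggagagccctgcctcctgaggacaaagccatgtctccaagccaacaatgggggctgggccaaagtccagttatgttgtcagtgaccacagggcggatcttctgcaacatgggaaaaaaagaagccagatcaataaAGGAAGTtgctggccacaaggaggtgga
Pilrb1, chr5:137858020-137858219: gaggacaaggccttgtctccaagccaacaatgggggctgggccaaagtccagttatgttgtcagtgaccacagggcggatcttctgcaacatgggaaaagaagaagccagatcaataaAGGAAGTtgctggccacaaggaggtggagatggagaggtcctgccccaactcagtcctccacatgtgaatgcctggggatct
Pilrb2, chr5:137871729-137871928: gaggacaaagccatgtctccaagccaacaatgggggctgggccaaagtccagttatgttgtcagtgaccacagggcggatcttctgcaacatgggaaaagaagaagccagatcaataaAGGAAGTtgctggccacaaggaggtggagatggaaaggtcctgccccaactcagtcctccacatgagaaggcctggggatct
Cd300e, chr11:115062010-115062209: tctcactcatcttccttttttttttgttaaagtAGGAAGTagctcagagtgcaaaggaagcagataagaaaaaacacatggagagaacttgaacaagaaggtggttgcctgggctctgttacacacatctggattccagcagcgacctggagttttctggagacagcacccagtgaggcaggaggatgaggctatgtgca
Over the 300 bases of the RefSeq entries, the Pilrb1 and Pilrb2 promoters are 97.3% identical (292 of 300). That of Pilra matches Pilrb1 at 242 of 354 aligned columns (68.4%) and Pilrb2 at 244 of 354 (68.9%). These columns count gaps, and the annotated start of Pilra is placed differently. AGGAAGT occurs on either strand in 7 of the 8 members, all but Cd300a, and in 9.57% of 27025 RefSeq promoters of the same length. The word was chosen after the promoters were read, and the 3 PILR promoters hold it within one shared stretch. Other words were searched on both strands: GAGGAA, which can overlap AGGAAGT, is in 5 of 8 members (28.3% of promoters), TGTGGT (RUNX) in 4 (16.9%), TTGCNNAA (C/EBP) in 4 (10.8%), GTGGGAA (RBPJ, the Notch effector) in Cd300a alone (6.39%), and TGANTCA (AP-1, 7.93%) and AAAGGTCA (NR4A, 1.46%) in none. A match is a run of letters, and no binding was measured.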

How the data were processed

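Estimated counts per gene were deposited by the authors, made with kallisto 0.46.1 and mm10 per the submitters' processing notes. RNA was extracted with RNAzol and made into stranded mRNA libraries, per the labels' protocols. Which annotation was used, how transcripts were joined to genes and whether strand was used are not given here. Between 25.6% and 27.5% of values per library were not whole, and they were rounded. Of 46517 IDs, 46005 matched a GENCODE M21 symbol (GRCm38). Promoters came from RefSeq (GRCm38.p6, 8 of 8 members).

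Genes were filtered with filterByExpr, scaled by TMM and fitted over all 9 libraries by subset with edgeR 4.0.16 (quasi-likelihood F test, robust, R 4.3.3), with Benjamini-Hochberg adjustment over 14059 genes and a threshold of 0.05. A prior count of 2 was used for log2 CPM. The steps were tested on simulated data. Alternatives were other scalings and filters, DESeq2 1.42.0, a replicate block, each library left out, libraries 1 and 2 alone, summed PILR counts and another gene length.

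Deviations of same-numbered libraries from their subset means correlated at 0.59, 0.30 and 0.27 between intMo and pMo, each over 0.1, and on that rule the numbers were taken to pair these, from the data and not from the labels. Differently numbered pairs of libraries 1 and 2 correlated as highly (0.40 for intMo 1 with pMo 2 and 0.28 for intMo 2 with pMo 1), so the pairing sets library 0 apart and does not tell 1 from 2. A block in the 6 intMo and pMo libraries alone was added after seeing the data. Between cMo and the other subsets the numbers did not pair.

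The members and gene lists were chosen with earlier results of these data known. All members are named. Of each list, up to 3 called genes without overlap and with the largest change, the most abundant gene and all adaptors and phosphatases could be named. Some listed genes are not reported here and were left out of the counts and sums printed for their lists.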

Additional observations from a re-analysis of the deposited data

How the results depend on the processing

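Of 407 member values under 19 alternative settings, 380 kept direction and call, 13 lost a call, 9 gained one, 3 moved by more than their error and 2 changed sign. The 7 and 6 members called higher against cMo were 6 and 6 with the replicate block over all 9 libraries, the Pirb call being lost, and no member gained or lost a call against intMo in that fit. In pMo against intMo, 701 genes were called, with 0 members higher and 0 lower. DESeq2 called 1352 genes and 2 members higher. The replicate block in intMo and pMo libraries alone called 2589 genes and 2 members higher. Libraries 1 and 2 alone called 2424 genes, 2 members higher and 1 lower. Leaving out each library in turn gave 221 genes (without pMo library 1) to 1107 (without cMo library 0), and 0 to 2 members higher, the 2 being Cd300e and Cd300ld without cMo library 0. The cause was not tested. Some uncalled values changed sign. With PILR counts summed, Pilrb1 in pMo against intMo was 0.02 (with Pilrb2) and 0.05 (with all 3). Leaving out each library gave, in intMo against cMo, -0.17 to 0.35 for Hcst and -0.01 to 0.27 for Ptpn6. In pMo against intMo it gave -0.08 to 0.33 for Cd300lg, -0.10 to 0.85 for Cd300ld3, -0.02 to 0.19 for Inpp5d, -1.43 to 0.48 for Pianp and -0.40 to 0.14 for Npdc1, and libraries 1 and 2 alone gave -0.27 for Cd300lg, 0.23 for Pianp and 0.04 for Npdc1. The number of libraries, 3 per subset, limits the precision of all differences.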
